A study of Homo sapiens with 6 samples.

Results

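The E2F and DP transcription factors are described here in T24, an established cell line of human bladder carcinoma, in cells transfected with a small interfering RNA (siRNA) against USP43 or with a control siRNA. The members were taken by gene symbol, E2F1 to E2F8, TFDP1 and TFDP2, and each had 1 row among the 63241 genes of the deposited table, so 10 of 63241 rows are covered. The siUSP43 group, labelled as USP43 knockdown, and the siNC group, labelled as wild type, had 3 libraries each, and the labels place all 6 in the same batch. All were grown in RPMI medium with fetal bovine serum, and no drug treatment is named. It is not stated whether 1 or several siRNA duplexes were used against USP43, or whether the libraries of a group came from separate cultures. Each p-value is therefore set by the spread among these libraries alone, and that spread may be technical. The series' title names stabilization of E2F1 by the deubiquitinase USP43, cholesterol homeostasis and gemcitabine resistance. Only mRNA was measured in these files, and protein was not analysed here.

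E2F proteins bind GC-rich sites in the promoters of genes needed for entry into S phase. E2F1 to E2F6 bind DNA as dimers with a DP protein, encoded by TFDP1 or TFDP2. E2F1, E2F2 and E2F3 are classed as activators and are held in check by the retinoblastoma protein RB1, whereas E2F4 and E2F5 mainly repress in quiescent cells together with the RB1-related proteins p107 and p130. E2F6 represses through Polycomb complexes without a pocket protein. E2F7 and E2F8 are atypical members that carry a pair of DNA-binding domains, need no DP partner, and repress E2F targets late in S phase. Several of these genes are themselves E2F targets, and in bladder cancer the locus of E2F3 is a known site of amplification.

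The stretches just before the start sites of 5 members are shown because members of the family are among the promoters that E2F proteins are known to bind. Sequences are from RefSeq, build GRCh38.p14, which held 8 of the 10 members (E2F5 and E2F8 had no entry), each given 5′ to 3′ over the 150 bases before the start site. Capitals mark, on either strand, the 7-letter motif TTTGGCG or a close variant of it (TTTCGCG in some cases, TTTCCCG in others and TTTGCCG in the rest), and overlapping matches run together.
E2F1 (chr20:33686386-33686535, minus strand): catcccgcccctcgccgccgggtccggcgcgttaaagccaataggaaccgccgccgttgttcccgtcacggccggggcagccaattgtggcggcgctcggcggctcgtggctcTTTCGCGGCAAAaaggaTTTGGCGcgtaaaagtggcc
E2F2 (chr1:23531234-23531383, minus strand): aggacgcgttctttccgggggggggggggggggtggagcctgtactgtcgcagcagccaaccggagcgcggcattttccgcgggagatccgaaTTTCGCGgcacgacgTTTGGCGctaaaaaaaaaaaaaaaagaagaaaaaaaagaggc
E2F3 (chr6:20401729-20401878, plus strand): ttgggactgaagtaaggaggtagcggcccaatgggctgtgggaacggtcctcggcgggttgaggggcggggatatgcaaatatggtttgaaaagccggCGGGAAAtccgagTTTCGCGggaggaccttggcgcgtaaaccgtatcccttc
TFDP1 (chr13:113584603-113584752, plus strand): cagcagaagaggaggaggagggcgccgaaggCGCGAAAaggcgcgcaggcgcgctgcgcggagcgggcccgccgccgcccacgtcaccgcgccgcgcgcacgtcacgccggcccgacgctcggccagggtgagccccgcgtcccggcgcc
E2F7 (chr12:77065570-77065719, minus strand): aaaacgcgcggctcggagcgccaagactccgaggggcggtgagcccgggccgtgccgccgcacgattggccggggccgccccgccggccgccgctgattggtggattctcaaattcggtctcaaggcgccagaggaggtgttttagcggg

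The promoters of E2F1 and E2F2 each held TTTCGCG followed by TTTGGCG on the strand shown. Counted from the start site, they began at -37 and -20 in E2F1, with an overlapping TTTGCCG on the other strand, and at -57 and -42 in E2F2. E2F3 had TTTCCCG on the other strand from -52 and TTTCGCG from -39, and TFDP1 had TTTCGCG on the other strand from -119 to -113. Over the whole window of 250 bases before to 50 bases after the start, E2F6 held 2 matches and TFDP2 held 1, while E2F4 and E2F7 held 0. Of all 35116 RefSeq promoter entries, 8.67% held at least 1 match and 0.681% at least 2, against 6 and 4 of the 8 members matched. A match is a description of the letters and not a binding site.

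The libraries held 21430574 to 25577200 gene counts. USP43, the targeted gene, had 1.02, 0.67 and 0.80 FPKM (fragments per kilobase of exon, scaled to library size) in the siUSP43 libraries, against 2.36, 2.09 and 2.08 FPKM in the siNC libraries. All siUSP43 values lay below all siNC values, with a log2 fold change of -1.40 (SE 0.14; edgeR quasi-likelihood test, Benjamini-Hochberg adjusted p = 5.63e-06; exact two-sided permutation p = 0.1, the smallest that 3 against 3 allows). By limma on log2(FPKM + 1) it was -0.80, a scale that understates the change of low genes. Genes were tested at a mean of at least 1 FPKM over the 6 libraries. USP43 averaged 0.83 FPKM in siUSP43, so it was tested only through its higher level in siNC. With no FPKM filter its log2 fold change was -1.38 (edgeR, adjusted p = 2.04e-07). The cells carried epithelial and mesenchymal transcripts together, with KRT18 at 190.37 to 231.1 FPKM and VIM at 391.9 to 451.39 FPKM over the 6 libraries. Of the other urothelial and epithelial markers, KRT7 (173.53 to 240.25 FPKM), KRT8 (86.17 to 100.45 FPKM) and KRT19 (8.82 to 12.4 FPKM) were higher than PPARG (1.84 to 2.92 FPKM). EPCAM stood at 0.48 to 1.3 FPKM and GATA3 at 0.21 to 0.46 FPKM. UPK1B, UPK2 and UPK3A of the same list were at most 0.16 FPKM in any library. Leukocyte, endothelial and fibroblast markers stayed at or below 1.06 FPKM, with CD3E and MS4A1 listed at 0.

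Most of the family differed between the groups, 6 members being higher and 3 lower in siUSP43. All 10 passed the filter of a mean of at least 1 FPKM over the 6 libraries, E2F2 only through its higher level in siUSP43. The member counts and medians given here include E2F2. Of the 10, E2F1, E2F2, E2F6, E2F8, TFDP1 and TFDP2 rose, E2F4, E2F5 and E2F7 fell, and E2F3 did not pass (edgeR, Benjamini-Hochberg adjusted p under 0.05, adjusted over all 11417 genes tested). Among all genes tested 28.0% rose and 28.1% fell, so 56.1% were called in either direction. The median log2 fold change of the members was 0.41, beside -0.01 over all tested genes, and their median absolute log2 fold change was 0.46, beside 0.24. The groups did not overlap in FPKM for 8 of the 10 members, beside 62.2% of all tested genes. RNA was taken from whole cultures, so a shift in the share of cells in a cycle phase and a change of mRNA per cell cannot be told apart. Effects of the siRNA on genes other than USP43 were not tested. For the 7-letter motif GGATCCA or GATCCAA no source is given here, and its relation to the siRNA was not tested. It stood in the 3′ untranslated region of 27.93% of genes that fell at least 2-fold. The share was 10.71% of genes not called, 9.16% of genes that rose at least 2-fold and 13.09% of all 10079 tested genes with such a region. Of the 10 members 0 held it, which with so few genes cannot be told apart from the share over all tested genes. These shares were not adjusted for the length of the region.

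**Figure D1:**
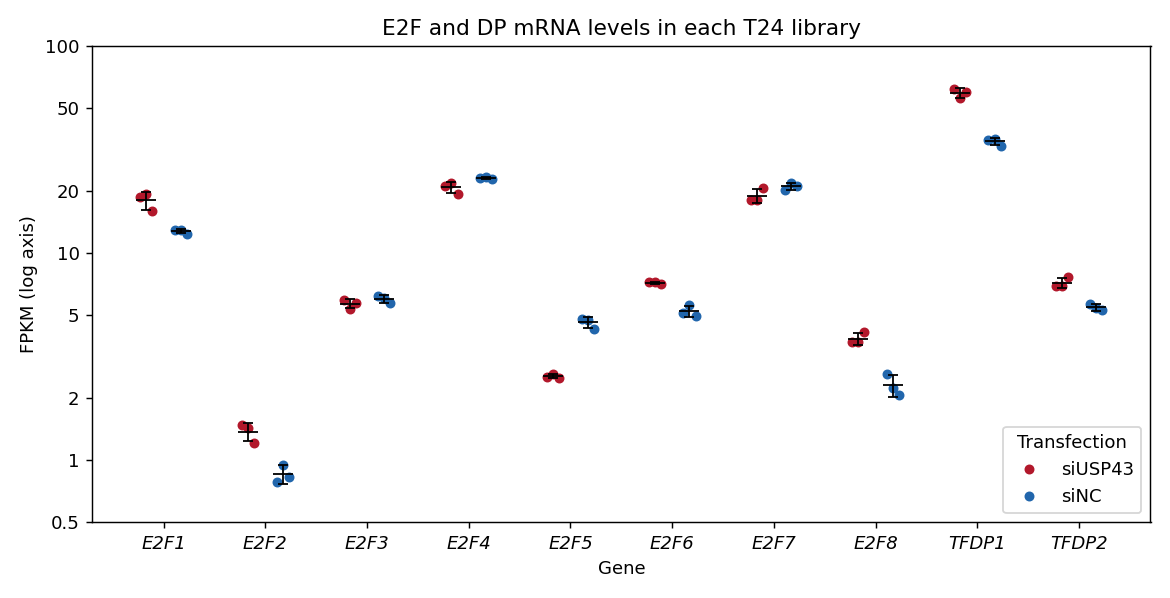
FPKM of each gene (log axis) in the 3 siUSP43 and 3 siNC libraries, with points for libraries, horizontal marks for group means and bars for 1 SD. TFDP1 is the highest in both groups, at 59.3 and 34.6 FPKM, and the siUSP43 points of E2F4 and E2F5 lie below those of siNC while those of E2F1, E2F2, E2F6, E2F8, TFDP1 and TFDP2 lie above.

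By level per length, the family spanned a wide range. In siUSP43 the order was TFDP1, E2F4, E2F7, E2F1, E2F6, TFDP2, E2F3, E2F8, E2F5 and E2F2. In siNC it was TFDP1, E2F4, E2F7, E2F1, E2F3, TFDP2, E2F6, E2F5, E2F8 and E2F2. The ranges of E2F4 and E2F7, of E2F7 and E2F1, and of E2F6 and TFDP2 overlapped between neighbours in siUSP43, so their order there is not resolved by the 3 libraries. In siNC the overlapping neighbours were TFDP2 and E2F6 alone, and E2F4 (22.65 to 23.39 FPKM), E2F7 (20.21 to 21.75 FPKM) and E2F1 (12.4 to 12.94 FPKM) stood in separate ranges. E2F8 lay above E2F5 in siUSP43 and below it in siNC, with separate ranges in both groups.

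Of the activators, E2F1 and E2F2 rose and E2F3 did not pass. E2F1 (ENSG00000101412, GRCh38 chromosome 20, 33675477 to 33686385, minus strand), the member named in the series' title, had 18.71, 19.32 and 15.92 FPKM in siUSP43, against 12.85, 12.94 and 12.4 FPKM in siNC. Every siUSP43 value lay above every siNC value, and the lowest was that of siUSP43 replicate 3. The groups averaged 17.98 ± 1.81 FPKM in siUSP43 and 12.73 ± 0.289 FPKM in siNC (SD, n = 3 each), and the log2 fold change was 0.48 (SE 0.08; edgeR, adjusted p = 2.05e-04; exact two-sided permutation p = 0.1). Its 977 to 1503 counts per library keep counting error small beside that difference.

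E2F2 (ENSG00000007968, chromosome 1, 23506438 to 23531233, minus strand), the activator with the lowest level here, had 1.47, 1.43 and 1.21 FPKM in siUSP43, against 0.78, 0.95 and 0.83 FPKM in siNC. The groups did not overlap, and siUSP43 replicate 3 was again the lowest of its group. The log2 fold change was 0.66 (SE 0.13; edgeR, adjusted p = 8.10e-04), and 0.35 by limma on log2(FPKM + 1). Its siNC mean of 0.853 FPKM is under the filter of 1 FPKM, so E2F2 was tested only through its higher level in siUSP43. It rests on 121 to 239 counts per library.

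E2F3 (ENSG00000112242, chromosome 6, 20401879 to 20493714, plus strand) had 5.94, 5.37 and 5.76 FPKM in siUSP43, against 6.22, 6.09 and 5.7 FPKM in siNC. The groups overlapped. The log2 fold change of -0.09 (SE 0.06; edgeR, adjusted p = 0.236) did not pass. The table gives 1 value per gene, so the E2F3a and E2F3b transcripts, which start at different promoters, are summed.

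Of the repressors that bind DP, E2F5 showed the largest decrease of the family by log2 fold change. E2F5 (ENSG00000133740, chromosome 8, 85177154 to 85217158, plus strand) had 2.52, 2.6 and 2.49 FPKM in siUSP43, against 4.81, 4.75 and 4.30 FPKM in siNC. The siUSP43 libraries lay close together and all below siNC. The log2 fold change was -0.88 (SE 0.07; edgeR, adjusted p = 7.59e-07), a ratio of 0.542. E2F5 shares 3111 bases of its span with RBIS, a ribosome biogenesis factor gene on the other strand, and the sources used here do not give the strand setting of the counting. RBIS had 20.6 ± 0.850 FPKM in siUSP43 and 21.9 ± 0.156 FPKM in siNC (SD, n = 3 each), and the log2 fold change was -0.10 (SE 0.05; edgeR, adjusted p = 0.122). The part of its reads in the count of E2F5 was not tested.

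E2F4 (ENSG00000205250, chromosome 16, 67192155 to 67198918, plus strand), the main partner of p107 and p130 in resting cells, had 21.02, 21.87 and 19.36 FPKM in siUSP43, against 22.98, 23.39 and 22.65 FPKM in siNC. All siUSP43 values lay below siNC, by a small margin. The log2 fold change was -0.17 (SE 0.05; edgeR, adjusted p = 0.022). The call ended without siNC replicate 1 (adjusted p = 0.0572), siNC replicate 2 (adjusted p = 0.0821) or siUSP43 replicate 1 (adjusted p = 0.0585) in the edgeR fit, and the adjusted p over its alternatives ran from 0.00637 to 0.0821.

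E2F6 (ENSG00000169016, chromosome 2, 11444375 to 11466177, minus strand), the Polycomb-linked repressor, moved the other way. It had 7.25, 7.20 and 7.11 FPKM in siUSP43, against 5.12, 5.58 and 4.95 FPKM in siNC, with no overlap. The log2 fold change was 0.45 (SE 0.06; edgeR, adjusted p = 1.04e-04). Its processed copy E2F6P4 on chromosome X drew 28 to 60 counts per library, beside 590 to 881 for E2F6. The sources used here do not say how reads shared between them were counted.

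The atypical members, which repress E2F targets without DP, differed from each other. E2F8 (ENSG00000129173, chromosome 11, 19224063 to 19241620, minus strand) had 3.70, 3.71 and 4.14 FPKM in siUSP43, against 2.6, 2.22 and 2.07 FPKM in siNC. The groups did not overlap, with a log2 fold change of 0.73 (SE 0.10; edgeR, adjusted p = 6.40e-05). CSRP3-AS1, an antisense gene across its whole span, averaged at most 0.0867 FPKM in either group. E2F7 (ENSG00000165891, chromosome 12, 77021248 to 77065569, minus strand) had 18.10, 17.94 and 20.66 FPKM in siUSP43, against 20.21, 21.75 and 20.94 FPKM in siNC. Here siUSP43 replicate 3 lay inside the siNC range while the other siUSP43 libraries lay below it.

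For E2F7 the log2 fold change was -0.17 (SE 0.06; edgeR, adjusted p = 0.0322). The call ended without siNC replicate 2 (adjusted p = 0.125), siNC replicate 3 (adjusted p = 0.0705), siUSP43 replicate 1 (adjusted p = 0.144) or siUSP43 replicate 2 (adjusted p = 0.0966) in the edgeR fit. Without siUSP43 replicate 3 it was -0.23 (edgeR, adjusted p = 3.88e-04), and over all alternatives the adjusted p ran from 3.88e-04 to 0.144. In siUSP43 replicate 3 the levels of E2F1, E2F2, E2F4, E2F5 and E2F6 were the lowest of the siUSP43 libraries. Those of E2F7, E2F8 and TFDP2 were the highest of these libraries.

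Both DP genes rose. TFDP1 (ENSG00000198176, chromosome 13, 113584721 to 113641473, plus strand), which encodes the main dimer partner DP1, had 62.0, 55.81 and 60.22 FPKM in siUSP43, against 35.26, 35.43 and 33.01 FPKM in siNC. The lowest siUSP43 library exceeded the highest siNC library by a wide margin. The groups averaged 59.3 ± 3.19 FPKM in siUSP43 and 34.6 ± 1.35 FPKM in siNC (SD, n = 3 each), and the log2 fold change was 0.76 (SE 0.05; edgeR, adjusted p = 2.35e-07), the highest of the family in this fit. TFDP2 (ENSG00000114126, chromosome 3, 141944428 to 142149544, minus strand), which encodes DP2, had 6.92, 6.91 and 7.62 FPKM in siUSP43, against 5.67, 5.40 and 5.28 FPKM in siNC. These did not overlap either, with a log2 fold change of 0.38 (SE 0.06; edgeR, adjusted p = 1.23e-04). TFDP3, a paralog, was listed at 0 in all 6 libraries.

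**Figure D2:**
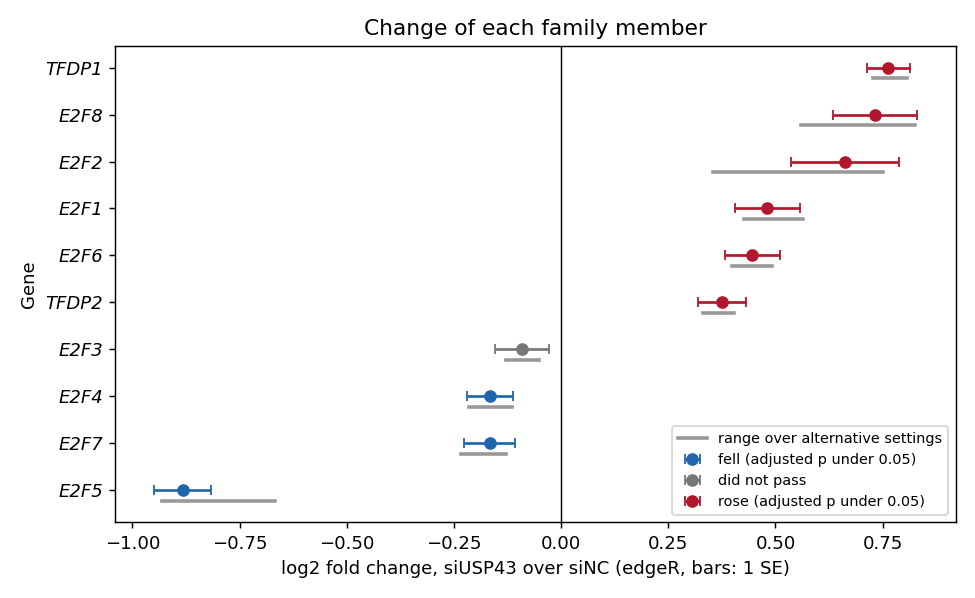
log2 fold change of each member, siUSP43 over siNC, from edgeR (points, coloured by call, with bars of 1 SE), and below each point the range over the alternative settings (grey line). Points run from -0.88 for E2F5 to 0.76 for TFDP1, the lines of E2F4 and E2F7 lie nearest 0 among members that were called, and no line crosses 0.

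Reads that map to copies of the family were few. Of the 10 pseudogene rows of E2F3, E2F4, E2F6 and TFDP1 in the table, 4 were at 0 in all libraries and the highest count in any library was 60.

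The make-up of the E2F mRNA pool separated the groups, whereas its size did not. Summed over E2F1 to E2F8, the level was 78.7, 79.4 and 76.7 FPKM in siUSP43 and 75.6, 77.7 and 73.8 FPKM in siNC, and the groups overlapped. The activators E2F1 to E2F3 held 33.2, 32.9 and 29.9% of that sum in siUSP43, against 26.3, 25.7 and 25.6% in siNC. All siUSP43 shares were above those of siNC, with E2F1 making up 71.7 ± 2.21% of the activator sum in siUSP43 and 65.0 ± 0.436% in siNC (SD, n = 3 each). E2F4 to E2F6 held 39.1, 39.9 and 37.8% in siUSP43, against 43.5, 43.4 and 43.2% in siNC, with no overlap.

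That difference in the share of E2F4 to E2F6, -4.47 percentage points, was -2.19 points when E2F5 and E2F8 were left out. Each overlaps a gene listed above 0 FPKM, though that of E2F8 averaged at most 0.0867 FPKM. Without E2F5 the share is that of E2F4 and E2F6 alone. E2F7 and E2F8 held 29.1 ± 2.83% in siUSP43 and 30.7 ± 0.501% in siNC (SD, n = 3 each), and these overlapped. Within the atypical sum the part of E2F8 was 16.9 ± 0.224% in siUSP43 and 9.89 ± 1.32% in siNC (SD, n = 3 each). No test was run on these shares, because the members were chosen with results known.

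The DP sum was higher in siUSP43, also relative to the E2F sum. TFDP1 and TFDP2 together stood at 68.9, 62.7 and 67.8 FPKM in siUSP43, against 40.9, 40.8 and 38.3 FPKM in siNC. Set against the summed FPKM of E2F1 to E2F6, the members that bind DP, this was a ratio of 1.21, 1.09 and 1.31 in siUSP43, against 0.776, 0.760 and 0.753 in siNC, with no overlap. TFDP1 held 89.2 ± 0.635% of the DP sum in siUSP43 and 86.4 ± 0.345% in siNC (SD, n = 3 each), a difference of 2.86 percentage points that was 5.69 with counts in place of FPKM. These are ratios of mRNA levels per length and say nothing of the proteins.

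**Figure D3:**
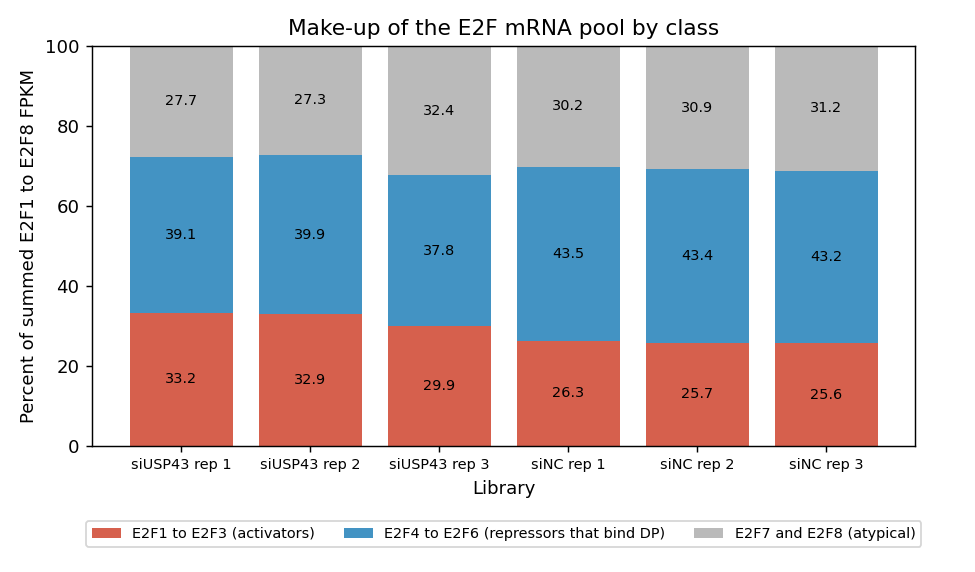
Percent of the summed E2F1 to E2F8 FPKM held by activators, by repressors that bind DP and by atypical members in each library (stacked bars, labelled in percent). The activator part is 29.9 to 33.2% in siUSP43 and 25.6 to 26.3% in siNC, and the atypical part overlaps between the groups.

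Of the 3 genes for pocket proteins, which bind E2Fs, RBL1 rose and the others did not pass, with a median log2 fold change of -0.04. That 33.3% rose is near the 28.0% of all tested genes. RBL1, which encodes p107 and is a known E2F target, had 9.37, 8.97 and 9.88 FPKM in siUSP43, against 5.86, 5.56 and 5.14 FPKM in siNC, and rose with a log2 fold change of 0.75 (SE 0.06; edgeR, adjusted p = 1.90e-06). RB1 had 18.5 ± 1.39 FPKM in siUSP43 and 18.8 ± 1.27 FPKM in siNC (SD, n = 3 each), and its log2 fold change of -0.04 (SE 0.06; edgeR, adjusted p = 0.579) did not pass. RBL2, which encodes p130, had 8.75 ± 1.06 FPKM in siUSP43 and 8.99 ± 0.284 FPKM in siNC (SD, n = 3 each), with a log2 fold change of -0.06 (SE 0.07; edgeR, adjusted p = 0.553). The signs of RB1 and RBL2 turned without siUSP43 replicate 2, and both overlap another tested gene on the other strand.

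In the MuvB core and its MYB and FOXM1 partners, which assemble with E2F4 and p130 in resting cells or with B-MYB in cycling cells, 4 of 7 tested genes rose and 1 fell, with a median log2 fold change of 0.23. Over all tested genes 28.0% rose and 28.1% fell. MYBL2, which encodes B-MYB and is a classic E2F target, had 80.3 ± 3.99 FPKM in siUSP43 and 44.3 ± 1.63 FPKM in siNC (SD, n = 3 each), and the log2 fold change was 0.84 (SE 0.05; edgeR, adjusted p = 1.39e-07). On the log2 scale MYBL1 rose by 0.62 and the DNA-binding subunit LIN54 by 0.50. FOXM1, a driver of mitotic genes, fell with a log2 fold change of -0.15 (edgeR, adjusted p = 0.0136), a call lost when siNC replicate 3 is left out (adjusted p = 0.0563; 0.00441 to 0.0669 over its alternatives), and it overlaps ITFG2 and RHNO1 on the other strand. LIN37 was under the filter.

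Of 14 tested genes of Polycomb complexes linked to E2F6, 5 rose and 5 fell (35.7% each, near the 28.0% and 28.1% of all tested genes), with a median log2 fold change of 0.01. PCGF6, the subunit that defines the E2F6-containing complex, had 19.9 ± 0.515 FPKM in siUSP43 and 11.6 ± 0.470 FPKM in siNC (SD, n = 3 each), and the log2 fold change was 0.76 (SE 0.06; edgeR, adjusted p = 5.25e-07). EZH2, the H3K27 methyltransferase, and YAF2 rose by 0.56 and 0.54 on the log2 scale, and YAF2 was at 0.36 with limma on log2(FPKM + 1). RING1, a ubiquitin ligase of the complex, had 5.78 ± 0.583 FPKM in siUSP43 and 11.4 ± 0.219 FPKM in siNC (SD, n = 3 each), and the log2 fold change was -1.0 (SE 0.09; edgeR, adjusted p = 1.87e-06). EED and MGA fell, with log2 fold changes of -0.34 and -0.32, and MGA was at -0.18 with limma on log2(FPKM + 1).

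Among 23 tested genes for enzymes and ligases that modify or turn over E2F proteins, leaving out USP43, 10 rose and 5 fell (43.5% and 21.7%, against 28.0% and 28.1% of all tested genes), with a median log2 fold change of 0.10. SETD7, a lysine methyltransferase reported to act on E2F1, had 4.02, 4.04 and 4.49 FPKM in siUSP43, against 1.51, 1.47 and 1.37 FPKM in siNC. The log2 fold change was 1.51 (SE 0.07; edgeR, adjusted p = 1.49e-08). KAT2B, an acetyltransferase of E2F1, rose by 0.70 on the log2 scale, and CCNA2, whose product cyclin A binds E2F1 to E2F3 and switches off their DNA binding, rose by 0.42. FZR1 and CDC27, activator and subunit of the anaphase-promoting complex, and SKP1, a subunit of the SCF ligase, fell, with log2 fold changes of -0.48, -0.37 and -0.24.

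Known E2F targets of the G1 to S transition rose in 26 of 42 cases and fell in 2, with a median log2 fold change of 0.19, beside 28.0% and 28.1% of all tested genes. The list was chosen with earlier results of these data known and supports nothing on its own. PRIM1, a primase subunit, CDC25A, a CDK phosphatase, and CCNE2, cyclin E2, had the largest increases of the list, with log2 fold changes of 1.13, 0.82 and 0.60. ASF1B, a histone chaperone, had 14.7 ± 1.6 FPKM in siUSP43 and 31.7 ± 1.66 FPKM in siNC (SD, n = 3 each), and the log2 fold change was -1.13 (SE 0.08; edgeR, adjusted p = 4.68e-07). CCNE1, cyclin E1, fell by 0.64 on the log2 scale, and was thus opposite in sign to CCNE2.

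Of 12 tested genes of apoptosis that E2F1 is known to induce, 3 rose and 4 fell (25.0% and 33.3%, near the 28.0% and 28.1% of all tested genes), with a median log2 fold change of -0.04. PMAIP1, which encodes NOXA, rose by 0.35 on the log2 scale (edgeR, adjusted p = 5.46e-05). BCL2L11, which encodes BIM, TP53INP1 and CASP8 fell, with log2 fold changes of -0.76, -0.50 and -0.36, and BCL2L11 was at -0.44 with limma on log2(FPKM + 1). TP73 and APAF1, textbook E2F1 targets, had log2 fold changes of 0.16 each and did not pass (edgeR, adjusted p = 0.116 and 0.0809). PRIM1, CCNA2, FZR1, CCNE2, BCL2L11, TP53INP1 and TP73 overlap other tested genes, and their reads are uncertain to that extent.

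**Figure D4:**
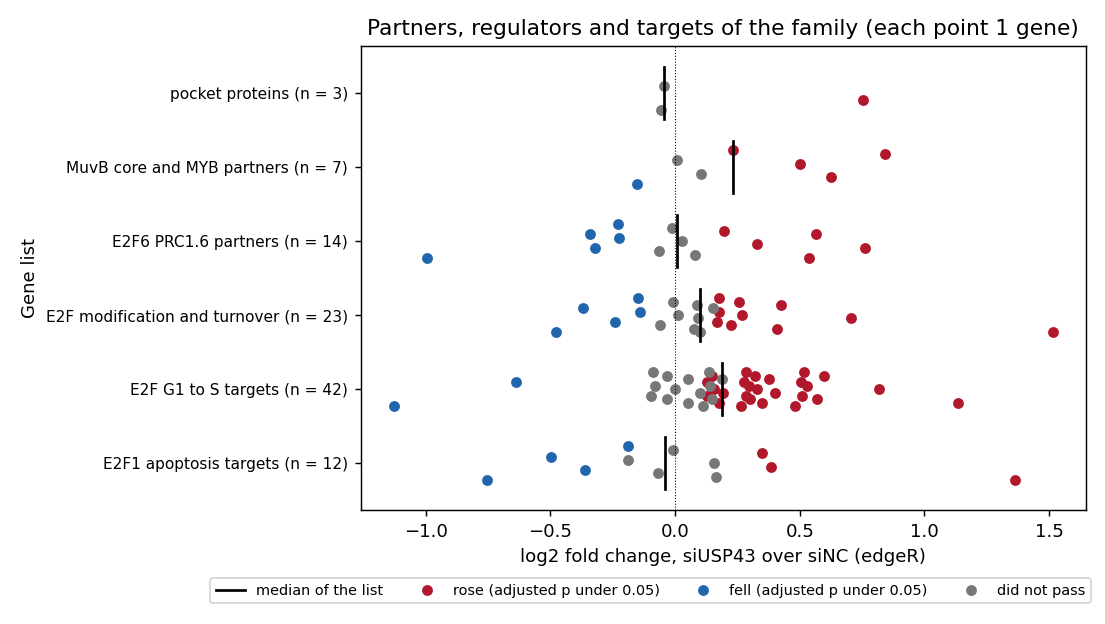
log2 fold change, siUSP43 over siNC, of each tested gene (point, coloured by call) in 6 lists of partners, modifiers and targets of the family, with the list median as a black line. The G1 to S targets lie mostly right of 0, with a median of 0.19, and the Polycomb and apoptosis lists spread to both sides.

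Over the 6 libraries, the tested genes whose log2(FPKM + 1) followed E2F1 most closely were PLEKHM1, CCM2, NSMCE2, IER3 and SUGT1, with Pearson's r of 0.9952 to 0.9974. Those closest to TFDP1 were PARP2, SNAPC1, TIMM21, MZT1 and TMEM39A, with r of 0.9989 to 0.9996. All 10 rose, beside 28.0% of all tested genes, with log2 fold changes from 0.15 for SUGT1 to 0.84 for MZT1. They were chosen by their r with genes that rose, so this direction follows from the choice. The call of SUGT1 ended in 7 of 17 alternatives and that of TMEM39A in 1, and NSMCE2 overlaps WASHC5 on the other strand. The points share the 2 groups, so the r values mostly follow the group difference. As many as 643 genes reached an r of 0.95 with E2F1 and 1560 with TFDP1, of 11417 tested.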

How the data were processed

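The deposited table gave raw read counts and FPKM per gene and library, per the file headers. The submitters' processing notes name cutadapt 2.6, HISAT2 2.2.1 and GRCh38, and libraries were made with a VAHTS kit from total RNA, per the labels' protocols. The read counter, annotation release and strand setting are not given in the sources used here.

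Genes with a mean of at least 1 FPKM over the 6 libraries were tested on the counts with edgeR 4.0.16 in R 4.3.3 (quasi-likelihood, TMM scaling, group as the only term), with p-values adjusted by Benjamini-Hochberg over all 11417 genes and called under 0.05. USP43 and E2F1 were also compared by exact two-sided permutation of 3 against 3 FPKM values. Each SE given with edgeR is the absolute log2 fold change over the square root of the F statistic. Shares are of deposited FPKM. limma 3.58.1 (pseudocounts of 1 and 0.1), DESeq2 1.42.0, other scalings and filters, a replicate block and the omission of single libraries were alternatives. Only the edgeR fit and a limma fit were run on simulated counts. Far fewer genes were changed in these than were called here, so the simulation does not cover a difference of this breadth. The family and the lists were chosen with earlier results of these data known. Genes were named by a rule: all members, the pocket proteins, the 3 largest increases and decreases of each other list among genes called, textbook partners, and the 5 genes most correlated with E2F1 and TFDP1. RBIS, TP73 and APAF1 were added after their values were seen, and some genes the rule names are not reported here. Counting error falls with depth, and counts carry no molecular identifiers. Replicate pairs differed by more than counting noise, with a chi-square per degree of freedom of 2.07 to 10.2.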

Additional observations from a re-analysis of the deposited data

How the results depend on the processing

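E2F1, E2F2, E2F5, E2F6, E2F8, TFDP1, TFDP2 and USP43 kept their direction and call in every alternative in which they were tested, and E2F3 passed in 0 of 17. E2F7 lost its call with no FPKM filter (-0.15), with limma on log2(FPKM + 1) (-0.14) or log2(FPKM + 0.1) (-0.15), and in the replicate block (-0.17); over left-out libraries it ran from -0.23 to -0.13. E2F4 lost its call in the replicate block (-0.17) and ran from -0.20 to -0.12 over left-out libraries. Leaving out libraries also moved RB1 between -0.10 and 0.0043 and RBL2 between -0.14 and 0.032. The cause was not tested.

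A filter of 5 FPKM called 1889 genes up and 1892 down, of 6245 tested rather than 11417. With the replicate block 2775 rose and 2841 fell. The labels do not say that numbers pair the samples: deviations of same-numbered libraries correlated at -0.03, -0.14 and -0.30, and no library correlated best with its own number. With counts in place of FPKM the share of E2F4 to E2F6 differed by -3.27 points and that of TFDP1 in the DP sum by 5.69, since genes of different length then weigh differently. The share of E2F4 to E2F6 differed by -2.19 points without E2F5 and E2F8. Among the members depth limits E2F2 most, and USP43 had fewer counts still in siUSP43.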
